A study of Mus musculus with 2 samples.

Results

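Promoter regions that were called with the antibody to Etv5 but not with the antibody to Etv4 were examined in EpRas cells. A region was taken when it was listed for Etv5, overlapped no region listed for Etv4, lay on a nuclear chromosome, and had its midpoint within 2 kb of the start of any annotated transcript. By this rule 1196 regions were chosen from the 8297 regions of the Etv5 list, and both lists together held 21933 regions. EpRas cells are EpH4 mouse mammary epithelial cells transformed with H-Ras, and both libraries came from cells in 4% serum that had received TGF-β3 at 1 ng/ml, with a treatment time of 1.5 h. The Etv4 antibody was a rabbit polyclonal and the Etv5 antibody a mouse monoclonal, with 1 library for each. With no replicate, no comparison between the antibodies could be set against a spread, and a difference between lists cannot be told apart from a difference between antibodies, depths or libraries. The lists hold no read counts, so that the depth behind a region is unknown, and untreated cells and control libraries were not analysed here. Absence from the Etv4 list and closeness to a start were used to choose the regions and are not results. Shares of regions are given with exact (Clopper-Pearson) 95% intervals, which cover counting error only and treat regions as independent.

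Etv4 and Etv5 are closely related ETS transcription factors that act downstream of Ras and ERK signaling. ETS proteins recognise a GGAA core, and many of them bind close to transcription start sites in CpG-rich promoters. The CCAAT box is another common promoter element, which lies upstream of many starts and is recognised by the trimeric factor NF-Y. AP-1, a dimer of Fos and Jun proteins, often occupies distal elements beside ETS factors.

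CCAAT boxes were more frequent in these regions than in Etv4-only promoter regions, and promoter stretches with 3 boxes show how the boxes were arranged. The following stretches belong to members with low region numbers, lie outside annotated exons, and are written 5′ to 3′ in the direction of the gene (mm10, bases from RefSeq GRCm38). Capitals mark the box on either strand, so that ATTGG is a box on the opposite strand.
Eif2ak3, chr6:70844173-70844292, + strand: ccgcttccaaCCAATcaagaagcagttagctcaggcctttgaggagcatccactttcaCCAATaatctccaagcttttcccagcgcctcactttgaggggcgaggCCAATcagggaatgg
Chtf18, chr17:25727420-25727507, - strand: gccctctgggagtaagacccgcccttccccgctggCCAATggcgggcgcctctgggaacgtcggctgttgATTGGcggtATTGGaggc
Ccng2, chr5:93267105-93267224, + strand: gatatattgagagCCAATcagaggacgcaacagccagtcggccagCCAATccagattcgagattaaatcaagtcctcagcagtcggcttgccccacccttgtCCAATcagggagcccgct
Jup, chr11:100398000-100398118, - strand: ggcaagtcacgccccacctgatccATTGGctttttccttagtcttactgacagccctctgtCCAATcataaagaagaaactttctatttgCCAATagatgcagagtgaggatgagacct
Per1, chr11:69095027-69095145, + strand: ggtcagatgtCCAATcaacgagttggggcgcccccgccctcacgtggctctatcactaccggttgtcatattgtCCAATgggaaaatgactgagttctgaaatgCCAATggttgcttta
The Chtf18 stretch ended 1 base before the start, the Ccng2 stretch reached from 152 to 33 bp upstream, and the Per1 stretch from 190 to 72 bp upstream. None of the 5 stretches belonged to a region with an ETS pattern in its central 500 bp.

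An ETS site near the midpoint was found in far fewer members, and 3 of these are shown because they carry the sequence that the factor is known to prefer. Capitals mark CCGGAAGT, or ACTTCCGG where the site is on the opposite strand.
Utp3, chr5:88554188-88554295, + strand: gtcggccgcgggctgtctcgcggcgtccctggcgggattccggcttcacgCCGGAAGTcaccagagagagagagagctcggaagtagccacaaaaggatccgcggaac
Slc25a26, chr6:94500264-94500330, + strand: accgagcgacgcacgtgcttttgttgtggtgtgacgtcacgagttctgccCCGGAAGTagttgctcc
Fam83h, chr15:76008821-76008928, - strand: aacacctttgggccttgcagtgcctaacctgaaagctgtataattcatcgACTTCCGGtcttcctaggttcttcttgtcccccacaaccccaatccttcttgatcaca
AP-1 sites (TGACTCA or TGAGTCA) were found in some members as well, and are in capitals in the following stretches, upstream of a small non-coding RNA gene and of Jup, which encodes the junction protein plakoglobin.
Gm26346, chr5:29708234-29708340, + strand: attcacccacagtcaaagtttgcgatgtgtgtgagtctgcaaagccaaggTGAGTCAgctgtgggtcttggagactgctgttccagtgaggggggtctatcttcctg
Jup, chr11:100398133-100398239, - strand: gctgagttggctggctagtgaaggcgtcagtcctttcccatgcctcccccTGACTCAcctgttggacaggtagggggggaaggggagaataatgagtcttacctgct
The Jup region thus held both kinds of element, with 4 CCAAT boxes and 1 AP-1 site in 500 bp. It lay only 96 bp from an Etv4 region.

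The members made up 43.6% of the 2740 promoter regions of the Etv5 list (interval 41.8 to 45.5%) and 39.1% of the 3055 nuclear Etv5-only regions (interval 37.4 to 40.9%). They were compared with 1544 promoter regions of the Etv5 list that overlapped an Etv4 region (shared), with 3470 promoter regions found only in the Etv4 list (Etv4-only), and with the starts of all 21938 protein-coding genes. Members were short, with a median length of 422.5 bp (range 299 to 1167 bp) against 561.5 bp for shared and 531 bp for Etv4-only promoter regions. The lists carry a region number whose criterion is not stated. Members had numbers from 183 to 8287 with a median of 5501, and 13 of them stood in the first 10% of the list. When the Etv5 promoter regions were ordered by number into 5 bins of 548, Etv5-only regions made up 16.8% of the first bin (interval 13.8 to 20.2%) and 61.5% of the last (interval 57.3 to 65.6%). Shared regions thus had lower numbers than members.

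Most members were far from any Etv4 region. The median gap was 25907 bp, and 819 members were over 10 kb away. A gap of at most 100 bp was measured for 37 members and of at most 1 kb for 154. The region upstream of Stk40, a kinase-like gene, touched an Etv4 region with a gap of 0 bp. The regions at Polr3k, which encodes an RNA polymerase III subunit, and at Rrm2b, a ribonucleotide reductase subunit, were 2 bp and 6 bp away. At the other edge of the rule, the shared regions with the least overlap were those at 2310007B03Rik (9 bp), Ctbp1 (10 bp) and Gm28437 (16 bp). By nearest start, 958 members (80.1%, interval 77.7 to 82.3%) belonged to genes without any Etv4 promoter region. Most genes lack such a region. Of all protein-coding genes, 11.2% had an Etv4-only and 4.63% a shared promoter region. The rule also left out regions that overlap an Etv4 region, so this share is not a result about the members.

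The distribution around starts was broad and nearly symmetric. The midpoint lay upstream of the nearest start in 614 members, downstream in 573 (47.9%, interval 45.0 to 50.8%), and on the start in 9. The share within 250 bp of a start was 50.3% (interval 47.5 to 53.2%) in members, 50.8% in shared regions (interval 48.3 to 53.4%) and 60.1% in Etv4-only regions (interval 58.5 to 61.8%). The median distance was 247 bp in members, 242.5 bp in shared and 165 bp in Etv4-only regions. A start was covered by the region itself in 47.7% of members (interval 44.9 to 50.6%), 53.2% of shared and 60.8% of Etv4-only regions, and the regions of both other classes were longer. Members and shared regions thus lay at similar distances, and both were farther from starts than Etv4-only regions.

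**Figure D1:**
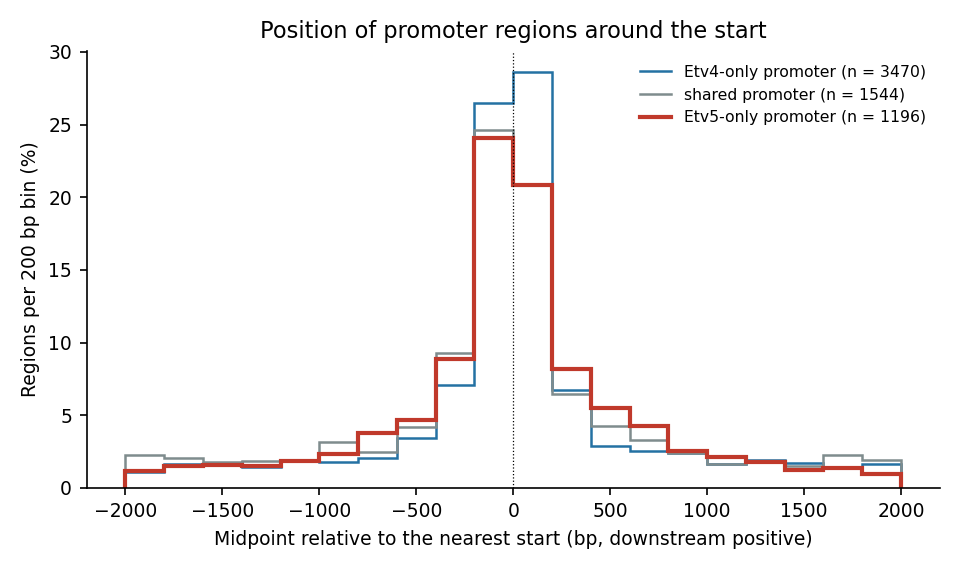
Share of regions (%) in bins of 200 bp by the midpoint's position relative to the nearest start, for 1196 Etv5-only, 1544 shared and 3470 Etv4-only promoter regions. Etv4-only regions have the highest peak at the start, and the median distance is 247 bp for Etv5-only regions against 165 bp for Etv4-only regions.

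Protein-coding genes supplied most of the starts. A start of a protein-coding gene lay within 2 kb of 1050 members (87.8%, interval 85.8 to 89.6%), compared with 77.8% of shared regions (interval 75.6 to 79.8%) and 85.3% of Etv4-only regions (interval 84.1 to 86.5%). For 970 members (81.1%, interval 78.8 to 83.3%) the nearest start itself was that of a protein-coding gene. The other 226 members were nearest to 49 starts of lincRNA genes, 47 of antisense genes, 47 of pseudogenes, 25 of genes of the TEC biotype, 21 of processed_transcript genes, 15 of miRNA genes and smaller groups. The lincRNA share was 4.10% in members (interval 3.05 to 5.38%) and 8.68% in shared regions (interval 7.32 to 10.2%). Starts of 2 genes diverged within 1 kb of the midpoint in 15.3% of members (interval 13.3 to 17.5%), 15.35% of shared regions (interval 13.6 to 17.2%) and 16.2% of Etv4-only regions, and the intervals overlapped. Midpoints fell in introns in 36.8% of members, outside annotated genes in 29.9%, in UTRs in 18.1%, in exons of non-coding transcripts in 9.11% and in coding exons in 6.10%.

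CpG content separated the members by their distance to the start. Sequence was called CpG-rich when 500 bp around the midpoint had a GC content of at least 55% and a ratio of observed to expected CpG of at least 0.65. This held for 465 members (38.9%, interval 36.1 to 41.7%), for 35.3% of shared regions (interval 32.9 to 37.7%), for 45.5% of Etv4-only regions (interval 43.8 to 47.1%), and for 41.4% of all protein-coding gene starts. Among members within 250 bp of a start the share was 62.96% (interval 58.96 to 66.8%), and among those over 1000 bp away it was 2.79% (interval 0.913 to 6.398%). Etv4-only regions within 250 bp had a similar share of 66.5% (interval 64.4 to 68.5%). By gene class, 43.0% of members nearest to a protein-coding gene were CpG-rich (interval 39.9 to 46.2%), against 21.2% of members nearest to another gene (interval 16.1 to 27.2%). Members with divergent starts were CpG-rich in 63.9% (interval 56.5 to 70.9%), close to the 65.8% of such shared regions (interval 59.4 to 71.8%). Both were below the 77.0% of Etv4-only regions with divergent starts (interval 73.3 to 80.5%).

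**Figure D2:**
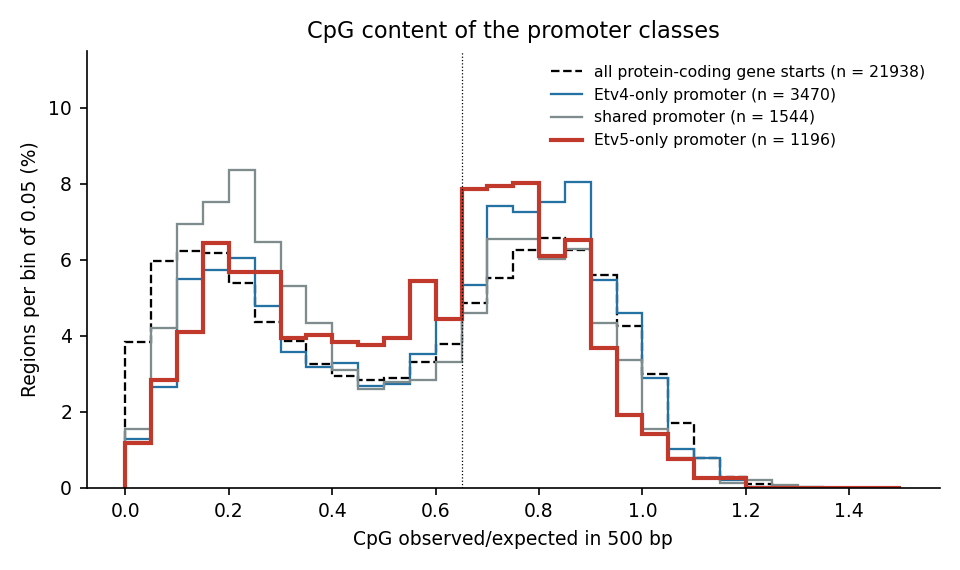
Share of regions (%) in bins of 0.05 by the ratio of observed to expected CpG in 500 bp, for the 3 promoter classes and all protein-coding gene starts, with the limit of 0.65 dotted. Each class has a CpG-poor and a CpG-rich mode, and the median ratio is 0.593 in Etv5-only regions, 0.494 in shared and 0.657 in Etv4-only regions.

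The ETS pattern was less frequent in members than in Etv4-only regions, and its share did not differ from that of gene starts beyond counting error. CAGGAAGT or CCGGAAGT on either strand occurred in 500 bp of 102 members (8.53%, interval 7.01 to 10.3%), against 10.2% of all protein-coding gene starts, 11.9% of shared regions (interval 10.3 to 13.6%) and 14.1% of Etv4-only regions (interval 12.9 to 15.3%). The strict form CCGGAAGT occurred in 5.02% of members (interval 3.85 to 6.41%), in 5.38% of shared and in 8.79% of Etv4-only regions. In CpG-rich sequence the ETS pattern was present in 12.5% of members (interval 9.61 to 15.8%) and 18.9% of Etv4-only regions (interval 17.0 to 20.9%), and all such gene starts had 13.4%. In CpG-poor sequence the shares were 6.02% (interval 4.41 to 7.997%) and 10.04% (interval 8.72 to 11.48%). Members thus held fewer ETS patterns than Etv4-only regions in both kinds of sequence. Within 250 bp of a start, where windows are most like those of gene starts, 12.1% of members had the pattern (interval 9.63 to 15.0%) and 8.80% the strict form (interval 6.66 to 11.4%). The strict form was above the 5.88% of all gene starts there and close to the 8.92% of shared regions within 250 bp (interval 7.02 to 11.1%). It was below the 13.4% of Etv4-only regions within 250 bp (interval 11.9 to 14.9%). In CpG-rich sequence, which members within 250 bp hold more often than gene starts do, the strict form was found in 10.3% of members (interval 7.71 to 13.45%) and at 10.65% of gene starts. ETS sites in members had a density of 0.184 per kb in the central 200 bp of the window and of 0.134 per kb beyond 150 bp from the midpoint, a difference for which no interval was computed. The pattern read backwards was present in 4.01% of members. NRF1, another factor of CpG-rich promoters, had its motif GCGCATGC in 4.30% of CpG-rich members (interval 2.65 to 6.56%). It was found in 5.87% of CpG-rich shared regions (interval 4.05 to 8.19%), whose interval overlaps that of members. CpG-rich Etv4-only regions had 7.61%, and CpG-rich gene starts 7.19%.

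Over all members AP-1 sites were above the level of gene starts and below that of shared regions. The interval overlapped that of Etv4-only regions over all members but lay below it in CpG-poor sequence. They occurred in 162 members (13.5%, interval 11.7 to 15.6%), in 16.3% of Etv4-only regions (interval 15.1 to 17.6%), in 26.7% of shared regions (interval 24.5 to 29.0%), and in 6.41% of all protein-coding gene starts. Within 250 bp of a start the share was 8.97% in members (interval 6.81 to 11.54%). Most sites were in CpG-poor members, where 19.02% had a site (interval 16.2 to 22.05%), against 37.3% of CpG-poor shared regions (interval 34.3 to 40.4%) and 25.5% of CpG-poor Etv4-only regions (interval 23.6 to 27.5%). Of CpG-rich members 4.95% had a site (interval 3.16 to 7.33%), and of CpG-rich Etv4-only regions 5.33% (interval 4.27 to 6.55%), and at CpG-rich gene starts the share was 3.31% (interval 2.95 to 3.70%), which overlaps that of the members. Of the members as a whole, 686 (57.4%) had no ETS pattern, no AP-1 site and fewer than 2 CCAAT boxes.

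Several CCAAT boxes together were more frequent in members than in the other promoter classes, whereas for at least 1 box over all members the intervals were apart only from that of Etv4-only regions. At least 1 box was found in 51.5% of members (interval 48.6 to 54.4%), in 47.9% of shared regions (interval 45.3 to 50.4%) and at 48.6% of gene starts, with overlapping intervals, and in 44.5% of Etv4-only regions (interval 42.9 to 46.2%). The box was searched on both strands, and it was chosen for closer description after its frequency had been seen. At least 2 boxes in 500 bp were found in 310 members (25.9%, interval 23.5 to 28.5%), in 20.1% of shared regions (interval 18.2 to 22.2%), in 14.4% of Etv4-only regions (interval 13.2 to 15.6%), and at 19.1% of all protein-coding gene starts. At least 3 boxes were found in 12.1% of members (interval 10.3 to 14.1%) and in 4.29% of Etv4-only regions (interval 3.64 to 5.02%). In CpG-rich sequence 32.9% of members had at least 2 boxes (interval 28.7 to 37.4%), compared with 26.6% of shared regions (interval 22.9 to 30.5%), 13.3% of Etv4-only regions (interval 11.6 to 15.0%) and 17.2% of gene starts. In CpG-rich sequence at least 1 box was found in 55.9% of members (interval 51.3 to 60.5%) and at 42.7% of gene starts, and in CpG-poor sequence in 48.7% (interval 45.0 to 52.4%) and 52.8%. In CpG-poor sequence members had at least 2 boxes in 21.5% (interval 18.6 to 24.6%), which did not differ from the 20.5% of gene starts beyond counting error, shared regions had 16.6% (interval 14.4 to 19.1%) and Etv4-only regions 15.3% (interval 13.7 to 17.0%). The 1859 Etv5-only regions beyond 2 kb, nearly all CpG-poor, had at least 2 boxes in 21.4% (interval 19.5 to 23.3%) and at least 1 in 57.1% (interval 54.8 to 59.4%). At least 2 boxes were thus not shown to be more frequent in CpG-poor members than there. At least 3 boxes were found in 8.48% of CpG-poor members (interval 6.56 to 10.7%) and 7.21% of those regions (interval 6.07 to 8.48%). For at least 4 boxes the intervals were narrowly apart, with 4.24% (interval 2.899 to 5.97%) and 2.10% (interval 1.50 to 2.857%). The letters of the box read backwards, which keep its composition, occurred at least 2 times in 10.3% of members, 10.2% of shared and 9.74% of Etv4-only regions, and at 8.15% of gene starts. In CpG-rich sequence the reversed letters were found at least 2 times in 4.52% of members (interval 2.82 to 6.82%) and at 4.66% of gene starts, and in CpG-poor sequence in 13.95% (interval 11.52 to 16.7%) and 10.6%. At least 3 times, the reversed letters were found in 1.59% of members (interval 0.959 to 2.47%) and at 1.58% of gene starts, where at least 3 boxes were found at 6.42%. The intervals of members and shared regions for at least 2 boxes overlapped in both kinds of sequence, with the higher share in members each time. Overlap of intervals is not a test, and a difference between these classes was not tested within either. A CCAAT box is a run of 5 letters and a match does not show that a protein was bound.

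**Figure D3:**
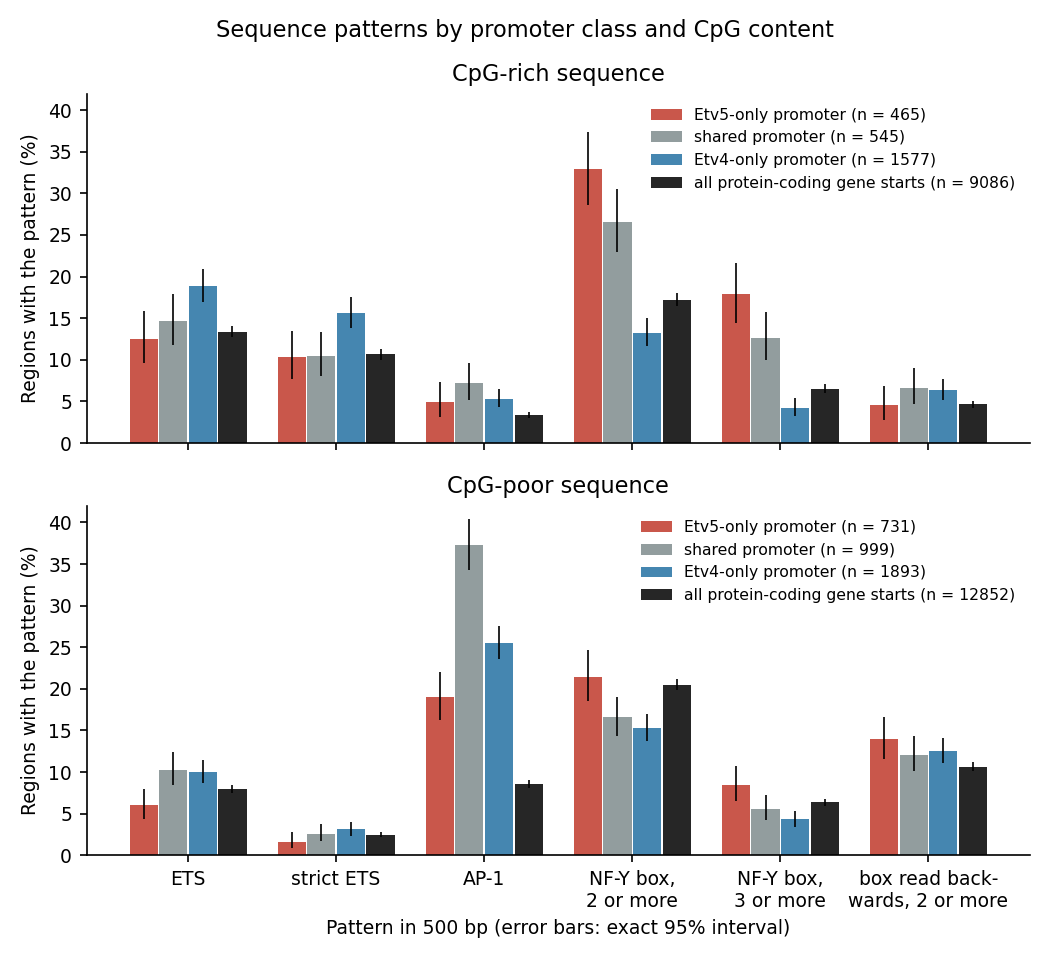
Share of regions (%) with each pattern in 500 bp in CpG-rich (top) and CpG-poor (bottom) sequence, by promoter class, where bars are shares, error bars are exact 95% intervals, and the CCAAT box is labelled NF-Y box. In CpG-rich sequence 32.9% of Etv5-only regions hold at least 2 boxes against 13.3% of Etv4-only regions, and in CpG-poor sequence AP-1 is highest in shared regions at 37.3%.

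The boxes in members lay mainly upstream of the start. Within 250 bp of protein-coding starts, members had 4.53 boxes per kb from 125 to 50 bp upstream and 2.67 per kb from 300 to 125 bp upstream, and 1.56 per kb from 50 bp upstream to 300 bp downstream (527 starts). Shared regions had 4.55, 2.29 and 1.06 boxes per kb in these windows (630 starts). In the first window Etv4-only regions had 2.78 (1818 starts), and all gene starts had 2.70. Members and shared regions thus had close values from 125 to 50 bp upstream, and members had more boxes in the other windows, with no interval computed. Relative to their own midpoints, members had 2.18 boxes per kb in the central 200 bp and 1.81 beyond 150 bp, a ratio of 1.203, and the ratio was 1.18 in shared and 1.02 in Etv4-only regions. The median distance between neighbouring boxes was 57 bp in members over 575 pairs, and 53 bp in shared regions over 547 pairs. An ETS pattern was found in 10% of members with at least 2 boxes (interval 6.90 to 13.9%) and in 8.01% of the others (interval 6.31 to 10%). AP-1 sites were present in 8.39% of members with at least 2 boxes (interval 5.55 to 12.1%) and in 15.3% of the others (interval 13.0 to 17.9%).

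**Figure D4:**
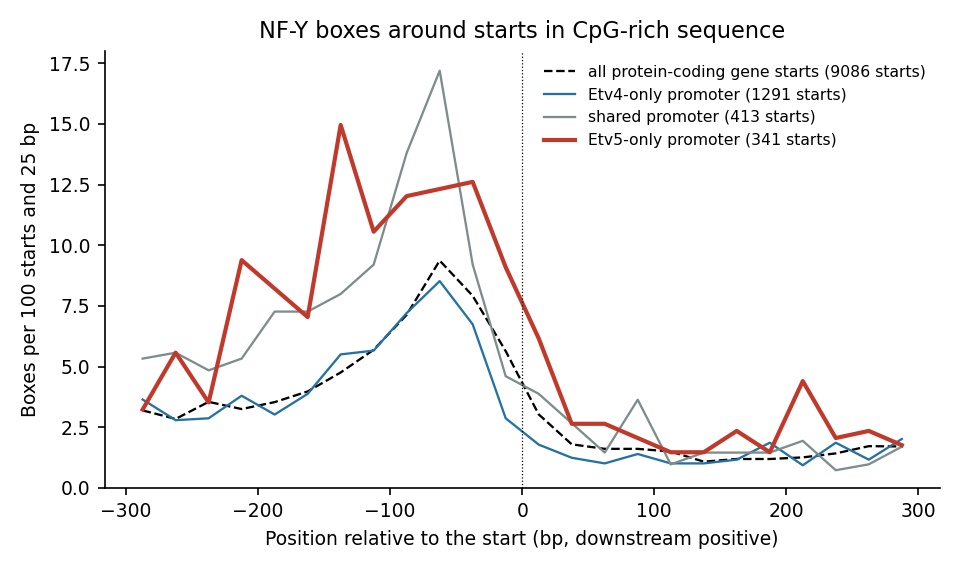
CCAAT boxes (labelled NF-Y boxes) per 100 starts in bins of 25 bp against the position relative to the start (bp), in CpG-rich sequence, for 341 starts of Etv5-only, 413 of shared, 1291 of Etv4-only regions and 9086 of all protein-coding genes. Etv5-only and shared regions have more boxes upstream of the start than Etv4-only regions, with 4.65, 5.36 and 2.85 boxes per kb from 125 to 50 bp upstream.

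The same element was frequent near the top of a search that did not start from a named motif. All 7-letter words carried by at least 5% of members on odd-numbered chromosomes (3830 words) were ranked there by the ratio of their share in members to that in Etv4-only regions, and were then measured on the even-numbered chromosomes and X. Of the first 10 words 6 contained CCAAT on either strand, as did 25 of the 3830. On the chromosomes that had not ranked them, these 6 words had ratios from 1.21 to 1.92, whereas ACATAGT, ranked 5 and without a box, had a ratio of 0.647. CCAATCG was carried there by 6.28% of 478 members and 3.27% of 1378 Etv4-only regions. AAATTGC, ranked first and without a box, was carried by 4.18% and 1.89%, a ratio of 2.22. Next to last in the ranking stood ACTTCCG, the opposite strand of an ETS core, which was carried by 8.996% of members and 15.0% of Etv4-only regions on those chromosomes. Not all low ranks held there, since CGTCCCC, ranked last, had a ratio of 1.06 and CACTGGA, ranked 3827, a ratio of 1.71. All these ratios are against Etv4-only regions, which had fewer boxes than shared regions. GCCAATA, 1 of the 6 words, was carried by 3.77% of members on those chromosomes and by 4.27% of shared regions on all chromosomes. The other words of the 6 had the higher share in members.

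Members with low numbers in the list differed from shared regions in boxes, CpG content and AP-1 sites, while their share with ETS patterns was similar, within a wide interval. In the first of the 5 bins by number, which spans numbers 1 to 2129, 36.96% of 92 members had at least 2 boxes (interval 27.1 to 47.7%) against 18.9% of 456 shared regions (interval 15.4 to 22.8%). At least 3 boxes were present in 26.1% (interval 17.5 to 36.3%) and 8.55% (interval 6.15 to 11.51%). In the last bin 19.3% of 337 members had at least 2 boxes (interval 15.2 to 23.9%) and 18.01% of 211 shared regions did (interval 13.1 to 23.9%). CpG-rich sequence was found in 69.6% of members in the first bin (interval 59.1 to 78.7%) and 28.5% in the last (interval 23.7 to 33.6%), while in shared regions it was 26.5% in the first bin and 39.8% in the last. AP-1 sites went the other way, with 9.78% of members (interval 4.57 to 17.8%) and 33.3% of shared regions (interval 29.0 to 37.9%) in the first bin. The ETS pattern was found in 11.96% of members (interval 6.12 to 20.4%) and 11.6% of shared regions in the first bin, and in 7.12% (interval 4.62 to 10.4%) and 11.4% (interval 7.42 to 16.4%) in the last. Compared with shared regions of the same bin, low-numbered members were thus richer in CpG and CCAAT boxes and poorer in AP-1 sites. Low-numbered members were also longer, with a median of 597 bp for those numbered 183 to 3413 and of 326 bp for those numbered 7181 to 8287, and the part of length in these shares was not tested. Boxes and AP-1 sites also varied with CpG content, as given above. The common bins were not split by it, so these differences are not separate from that in CpG content.

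**Figure D5:**
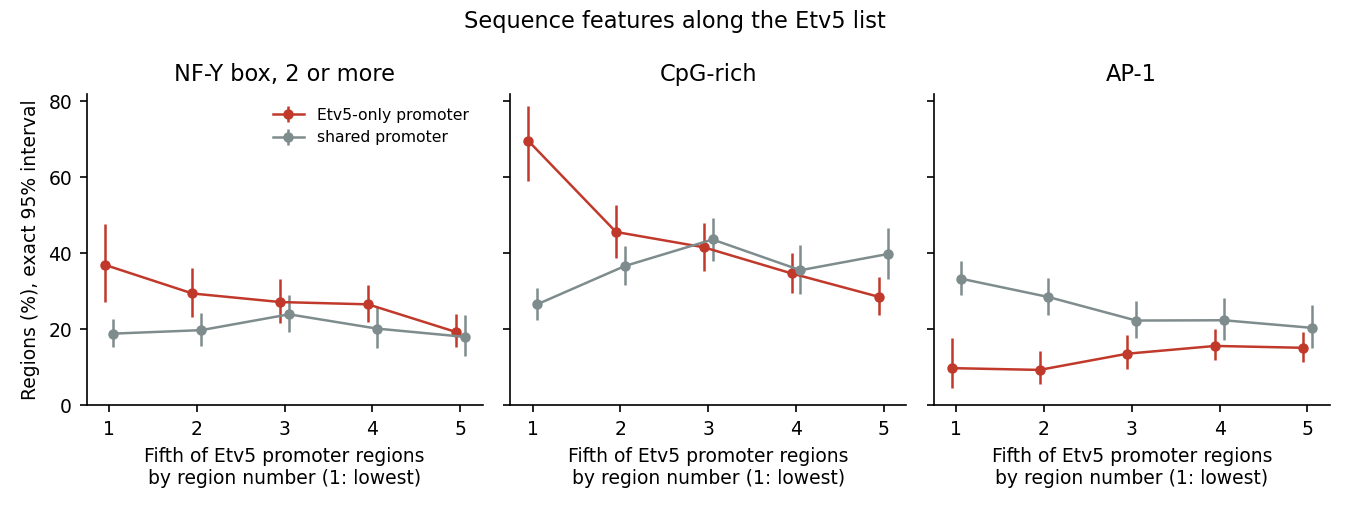
Share of regions (%) with at least 2 CCAAT boxes (labelled NF-Y box), in CpG-rich sequence and with an AP-1 site, for Etv5-only and shared promoter regions in 5 bins of 548 Etv5 promoter regions by region number, where error bars are exact 95% intervals. In the first bin Etv5-only regions are CpG-rich in 69.6% and shared regions in 26.5%, and in the last bin in 28.5% and 39.8%, with intervals that overlap.

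The members with the lowest numbers lay at genes of varied function. The first was the region upstream of Cenpu, which encodes a centromere protein (chr8:46551407-46552430, number 183), with its midpoint 109 bp upstream of the start in CpG-rich sequence and 64973 bp from the nearest Etv4 region. It was followed by regions at Zbtb7b, a zinc finger repressor (number 277, 128 bp upstream of a start), and at Tmem60 (number 403, 63 bp upstream). The region of Eif2ak3, which encodes the endoplasmic reticulum stress kinase PERK, had number 468, lay 236 bp upstream of the start and held 8 CCAAT boxes without an ETS or AP-1 match. Cpt1a, the carnitine palmitoyltransferase of fatty acid oxidation, had a CpG-rich region at 1996 bp downstream of a transcript start with no box (number 576). Gm16136, Trappc9, Lmf1, Tmem87b and Mnt, a Max-binding repressor, completed the first 10, with numbers from 568 to 682. Of these 10 regions 7 had no ETS, AP-1 or CCAAT match or only 1 box. The longest member, of 1167 bp, was at Cemip2, a cell-surface hyaluronidase gene, 417 bp downstream of a start. The next in length were at Asb1 and Tmem87b (1090 bp each), Cenpu (1024 bp) and Sp140 (1000 bp), and 76.8% of the 36-base sequences of the Sp140 region occur more than once in the genome.

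Members with many CCAAT boxes lay at genes of varied function. These genes were singled out after their values were seen, and no list of such genes was tested. At least 7 boxes were present in 500 bp around the midpoint of 8 members, some of which were shorter than this window. The region at Tomm40, a subunit of the mitochondrial import pore, had 9 boxes with its midpoint 277 bp upstream of a start. Eif2ak3 and Golph3l had 8 boxes each. The region at Hsp90b1, which encodes the endoplasmic reticulum chaperone GRP94, had 7 boxes and a strict ETS site. The region at Stip1, which encodes a co-chaperone of Hsp70 and Hsp90, had 7 boxes with its midpoint 277 bp upstream. The regions at Fbxo24, Cic, which encodes a repressor of Etv1, Etv4 and Etv5 transcription, and Paip2b also had 7. The region at Chtf18, a clamp-loader subunit, had 5 boxes with its midpoint 125 bp upstream.

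Genes with several members were few. The members belonged to 1151 genes, of which 42 had at least 2 members and 3 had 3. Per1, a core gene of the circadian clock, had 3 regions with numbers 1990, 3798 and 4279 that held 4, 3 and 0 boxes. Tbcd, a tubulin folding cofactor, had 3 regions with numbers 4199, 4803 and 6030 that held 0, 1 and 0 boxes. The 3 regions at AW822073 had 62.6 to 73.8% multicopy sequence, so that reads from other copies cannot be told apart there. Mostly multicopy sequence was found in 29 members (2.42%, interval 1.63 to 3.46%).

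For each list of genes of the pathways studied in these cells, the interval included the share of all genes with a member. These intervals were wide, so that neither a difference nor equality was shown. A member lay nearest to 932 of the 21938 protein-coding genes, 4.25% of all, and this share is the background of the counts that follow, which were made by gene symbol. The corresponding background was 4.63% for shared and 11.2% for Etv4-only regions. Of 53 TGF-β pathway genes 2 had a member (3.77%, interval 0.460 to 13.0%), a share near the background. The region at Skil, which encodes the Smad repressor SnoN, lay 786 bp downstream of the start, and that at Tgif1, another Smad corepressor, lay 16 bp downstream and 26 bp from an Etv4 region. Of 83 genes of the ERK pathway and its feedback 7 had a member (8.43%, interval 3.46 to 16.6%, which includes the background), while 18 had an Etv4-only region (21.7%). Rasa3, a Ras GTPase-activating protein, had a CpG-rich region with 4 boxes, its midpoint 58 bp downstream of the start, 386 bp from an Etv4 region. Dusp7, an ERK phosphatase, had a region 585 bp upstream with 2 boxes. The regions at Dusp14, Erbb2, Mapk12, Sos1 and Spry4, a feedback inhibitor of Ras signaling, had numbers from 5122 to 8009 and at most 1 box.

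Of 163 genes of the epithelial-mesenchymal transition and cell junctions 10 had a member (6.13%, interval 2.98 to 10.99%), whose interval includes the background. Tjp3, which encodes the tight junction protein ZO-3, had a region 357 bp upstream of a start. Snai3, a Snail-family repressor, had a region 1099 bp upstream with 1 AP-1 site, 75 bp from an Etv4 region. The region at Krt14, a basal keratin, had its midpoint 1085 bp upstream of the start and held 1 ETS pattern and 1 AP-1 site. The Krt80 region had its midpoint 372 bp downstream of a start and held 2 boxes. These regions lay 326 and 309 bp from an Etv4 region. The regions at Mmp9 and Mmp28, both matrix metalloproteinases, lay in introns 338 and 365 bp downstream of starts. The regions at Itgb1 and Itgb5, both integrin β subunits, lay 446 and 667 bp downstream in CpG-rich introns, and Ctnnbip1, an inhibitor of β-catenin, had a region 554 bp downstream. The Itgb1 region lay 358 bp from an Etv4 region. Of 27 ETS genes 2 had a member (7.41%, interval 0.910 to 24.3%), and this interval also includes the background. At Etv1, the closest relative of Etv4 and Etv5, the region lay 566 bp upstream of a start (number 3134) and held 3 boxes and no ETS pattern, and at Ets2 it lay 485 bp downstream with 1 AP-1 site. None of 23 AP-1 genes had a member (interval 0 to 14.8%), whereas 9 of them had a shared region (39.1%, interval 19.7 to 61.5%).

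Other gene lists ranged from below to above the background. Of 178 genes whose symbols mark the cell cycle and replication 15 had a member (8.43%, interval 4.79 to 13.5%). Without the symbols that start with Cdc42, which belong to that GTPase and its partners, 13 of 167 had one (7.78%, interval 4.21 to 12.9%), and this interval includes the background of 4.25%. Shared regions gave a similar share of 7.87% (interval 4.37 to 12.8%) against 4.63%, and Etv4-only regions 22.5% (interval 16.6 to 29.3%) against 11.2%. The lowest numbers were those of Cenpu, Cenpm and Cdc42ep3, and the following genes were picked after their values were seen. The centromere genes Cenpn, Cenpq and Cenpl were among them, as were the cyclin A2 gene Ccna2, the phosphatase gene Cdc25a, the replicative helicase gene Mcm5 and the kinesin genes Kif15 and Kif20b. The Mcm5 region, 104 bp upstream of the start, had 3 boxes, and the Cdc25a region, 61 bp upstream, had 2. Cdc42bpb and Cdc42ep3 matched the list by symbol but act with the GTPase Cdc42. Translation factors and tRNA synthetases had 10 of 105 (9.52%, interval 4.66 to 16.8%), among them Eif2ak3, Eif3e and Sars2, with a lower bound above 4.25%, and 28 with an Etv4-only region (26.7%). This list too was matched by symbol and counted the kinase genes Eif2ak1 and Eif2ak3. The share without them was not computed, so the lower bound holds only for the list as matched. Among splicing factors 8 of 112 had a member (7.14%), such as Rbm39, U2af1 and Srsf6, among mitochondrial ribosomal proteins 5 of 77 (6.49%), among DNA repair genes 4 of 72 (5.56%), and among vesicle traffic genes 15 of 268 (5.60%). Closer to the background were ubiquitin ligase families with 15 of 331 (4.53%), C2H2 zinc finger genes with 20 of 450 (4.44%), solute carriers with 17 of 385 (4.42%) and proteasome subunits with 2 of 48 (4.17%), and G protein-coupled receptors had 2 of 105 (1.90%). Matching by symbol also took in genes outside the named class, such as Usp21 among ubiquitin ligases and Zfp36 among C2H2 genes. With 22 lists counted, shares above the background are also expected from counting error.

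Ribosomal protein and histone genes had few members, with intervals that include the background of 4.25%, and their shares were higher in the other classes. Of 82 cytosolic ribosomal protein genes 2 had a member, Rpl11 and Rpl34 (2.44%, interval 0.297 to 8.53%), whereas 47 had an Etv4-only region (57.3%, interval 45.9 to 68.2%). The Rpl34 region lay 100 bp from an Etv4 region, and the Rpl11 region lay 1632 bp downstream of a start. Of 78 histone genes none had a member (interval 0 to 4.62%), 19 had a shared region and 18 an Etv4-only region. Respiratory chain and ATP synthase genes had 3 of 96 with a member (3.12%, interval 0.649 to 8.86%), which included Ndufs8 and Cox8a, and 31 with an Etv4-only region. Chromatin regulators had 6 of 115 with a member, such as Hdac4, Cbx7 and Kmt5c, and 19 with a shared region. Olfactory and vomeronasal receptor genes, which are silent in most tissues, had 2 of 1481 (0.135%, interval 0.0164 to 0.487%).

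The members with a strict ETS site near the midpoint were found at different genes. The site was 2 bp from the midpoint at Ctr9, a subunit of the Paf1 elongation complex (13 bp downstream of the start), and at Ppcdc, an enzyme of coenzyme A synthesis (831 bp downstream). It was 11 bp away at Cpt2, the second carnitine palmitoyltransferase of mitochondria, and 13 bp at Cox8a, a cytochrome c oxidase subunit, whose region held 2 strict sites and lay 221 bp from an Etv4 region. Lrrc8a, a volume-regulated anion channel subunit, had its site 16 bp away. Of the 10 members nearest to such a site 8 were CpG-rich, and they had numbers from 2866 to 6790.

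Members were spread over all autosomes, and 3 lay on chromosome X and 0 on Y. Relative to the number of protein-coding genes, chromosomes 19 and 15 held 1.91 and 1.82 times the mean density of members, and chromosome 14 held 0.285 times. Shared regions followed the same order at these chromosomes, with 2.15, 1.94 and 0.252 times the mean. Copy number was not measured. Just inside the limit of 2 kb lay the regions at Emilin2 (1997 bp), Cpt1a (1996 bp) and Pdzrn4 (1990 bp), and just outside lay those nearest to Nfic (2002 bp), AC131323.5 (2015 bp) and Riok3 (2016 bp).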

How the data were processed

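ChIP-seq libraries for Etv4 and Etv5 from EpRas cells treated with TGF-β3 were sequenced on an Ion Proton after 15 PCR cycles, with 1 library per antibody. The authors mapped reads to mm10 (Bowtie, per the labels) and called regions in each library by one-sample CisGenome, with a window of 300 bp, a p threshold of 0.1 and no input library, so that open or easily amplified sequence is not corrected for. The deposited BED lists hold start, end and a region number, whose criterion is not stated and which served here only to order regions. The score that the authors deposited is 1000 for every region and was not used. Read counts are not in these lists, so the depth is unknown, and lengths are uncertain by 1 bp.

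Regions were intersected (at least 1 bp shared), and midpoints were assigned to the nearest of 141730 transcript starts (GENCODE, GRCm38). CpG content and 17 patterns, searched on both strands, were measured in 500 bp around midpoints and around the 5′-most starts of 21938 protein-coding genes, with Python 3.11.15, numpy 2.4.6, pandas 2.3.3 and scipy 1.17.1. Multicopy sequence was the share of 36-base sequences found more than once in the genome. Shares carry exact 95% binomial intervals, and no test was run, since there are no replicates. The code was checked on simulated data (13 of 13 checks passed). The members and the 22 gene lists, matched by symbol, were chosen with earlier results of these data known. Named members were the 10 with the lowest numbers, the 5 longest, those of the TGF-β, EMT, ERK, AP-1 and ETS lists, the 10 with a strict ETS site nearest the midpoint, those at the 2 kb limit, genes with 3 members and up to 3 of each other list by number. The CCAAT box, its reversed form, the bins shared by both classes and genes with many boxes were chosen after seeing the data. The results of 1 gene list and of some named members are not reported here.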

Additional observations from a re-analysis of the deposited data

How the results depend on the processing

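With no replicates, the limits are those of 1 library per antibody, an unknown depth and regions that are not independent. No paired analysis was possible because no group has replicates that could be paired by number. Of 60 planned comparisons with an alternative 40 stayed within the interval of the reported value or, for the number of members, within 1.5 times, as did 7 of 12 added later. With midpoints within 1 kb of a start, 91.05% of regions had a protein-coding start within 2 kb, 45.23% were CpG-rich and 11.6% had an AP-1 site, and within 5 kb these shares were 68.23%, 30.28% and 17.93%. Counting starts of protein-coding genes only, 43.43% were CpG-rich. In the longer 50% of the Etv5 list, 319 members remained, with 42.01% downstream, 47.96% CpG-rich, 10.03% with AP-1 and 31.97% with at least 2 CCAAT boxes. In the first 50% by number, 350 members remained, with 92.86% near a protein-coding start, 40% downstream, 51.71% CpG-rich, 10% with AP-1 and 32.29% with at least 2 boxes. In 200 bp around the midpoint, which holds fewer bases, the shares were 35.37% for CpG-rich sequence, 3.344% for ETS, 6.187% for AP-1 and 9.615% for at least 2 boxes. In the whole region 22.83% had at least 2 boxes. The strict ETS pattern was found in 5.017%, and at least 3 boxes in 12.12%. Apart from the settings whose construction changes the sequence searched, the cause of these shifts was not tested. Requiring 50% reciprocal overlap for a shared region gave 1738 members, and requiring no Etv4 region within 1 kb gave 1042.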
